A study of Homo sapiens with 6 samples.

Results

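Nuclear receptors are transcription factors that sense small fat-soluble ligands or act without a known ligand. The accessible chromatin regions described here are those that the authors' deposited comparison tables name for 1 of 45 nuclear receptor genes. Every row whose gene column held a listed symbol was kept at any distance from the gene, and each region was counted once. This gave 1073 of the 226920 regions in the tables, and 45 of 19059 gene names. A name says which gene start a region was assigned to, and does not say that the region acts on that gene. The listed genes had between 1 region (NR2C1) and 85 regions (RXRA), with a median of 13. The regions lay a median of 83.8 kb from the named start and at most 1078 kb from it. Of the 1073 regions, 40 were within 1 kb of the start, 534 were farther away but within 100 kb, and 499 were beyond 100 kb. The RefSeq span of the named gene held 614 of them, and 459 lay outside it.

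The assay was ATAC-seq, which uses a transposase (Tn5) to cut and tag open DNA, and the cells were A375, an established human melanoma line. The 6 libraries formed 3 groups of 2: untreated cells (mock), cells exposed to recombinant HMGA1 for 2 h and cells exposed to it for 18 h. HMGA1 is a small architectural chromatin protein that prefers AT-rich DNA and bends it. The sources used here do not give its dose. The labels give the mock group no time, and there was no separate mock for each exposure time. Both libraries of each group are biological replicates per the labels, which name no separate cultures. The p-values therefore rest on how much these libraries differ from each other, which may be technical in part.

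Most nuclear receptors bind DNA through zinc fingers that read a hexamer half-site close to AGGTCA, and many bind 2 half-sites in a row as a pair with an RXR protein. Without ligand, thyroid hormone and retinoic acid receptors hold corepressors at their target genes, and ligand exchanges these for coactivators. In melanocytes and melanoma cells, retinoic acid, vitamin D and PPAR ligands are known to affect growth and pigmentation.

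The tables give, for each region, the mean signal over the 6 libraries (read counts scaled by size factors of the authors), a log2 fold change with standard error (SE), and the DESeq2 p with its Benjamini-Hochberg adjusted p. A region was called where that adjusted p was under 0.05. Values of single libraries were not analysed here, so the overlap between libraries cannot be given. Group levels printed below were computed from the mean signal and the deposited fold changes, are approximate, and have no error of their own. Every region has a p in the tables, but the adjusted p was set to 1, and the region is here called not tested, where the mean signal was under 56.2 in the 2 h comparison with mock, under 101 in the 18 h one, or under 41.7 between the times. All 3 comparisons came from 1 fit and share libraries, and the value of 18 h against 2 h is the difference of both values against mock. In a bulk sample, fewer cells with a region open and less cutting of it in each cell cannot be told apart. Of 9 melanocyte markers, 5 had a region within 1 kb of their start (mean signal 63.8 for SOX10 to 694 for MITF), and TYR, TYRP1, DCT and MLANA had none. Start regions were present for 3 of 6 keratinocyte, 2 of 6 immune, 1 of 5 endothelial and 3 of 6 fibroblast markers, all with a mean signal between 24.2 and 78.2. The median gene's strongest start region had 358. Regions farther from these other markers were called lower in 18 h against 2 h for 3 of 24 tested keratinocyte, 1 of 32 immune, 5 of 80 endothelial and 2 of 54 fibroblast regions, against 2.98% of all tested regions and 1 of 70 melanocyte marker regions. Against mock, 2 of 67 endothelial regions were higher at 2 h, against 0.856% of all, and 1 of 22 fibroblast regions was lower at 18 h, against 0.116%. Their part in the results below was not tested.

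Promoter sequence could be read for the members in the RefSeq windows of GRCh38.p14, which run from 250 bases before to 50 bases after a start. These matched 40 of the 45 members with 95 windows; NR2F6, VDR, HNF4G, NR4A2 and NR0B2 had no window. The 3 windows below are shown because the retinoic acid receptor gene RARB is the only one whose window lay over a called region, and because THRB holds more called regions than any other member. RARB is read from a distant 5′ promoter (chr3:24829071-24829370, plus strand) and from an internal promoter (chr3:25428013-25428312, plus strand), which lies inside the called region. The THRB window shown is chr3:24494801-24495100 on the minus strand, the one of its 2 windows that lies over a member region; the other, chr3:24495659-24495958, holds the 5′ end of the RefSeq span. RARB has 2 more windows, chr3:25340552-25340851 and chr3:25458060-25458359, over which no member region lies. Capitals mark a DR5 element, a direct repeat of half-sites (AGGTCA or GGGTCA or AGTTCA or GGTTCA) 5 bases apart, searched on both strands.
RARB internal promoter: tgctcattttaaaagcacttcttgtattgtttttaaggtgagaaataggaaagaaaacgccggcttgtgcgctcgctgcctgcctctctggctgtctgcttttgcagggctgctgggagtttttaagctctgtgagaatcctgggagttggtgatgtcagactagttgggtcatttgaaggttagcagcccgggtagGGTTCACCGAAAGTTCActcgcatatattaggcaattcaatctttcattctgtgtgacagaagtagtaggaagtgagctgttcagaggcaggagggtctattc
RARB distant promoter: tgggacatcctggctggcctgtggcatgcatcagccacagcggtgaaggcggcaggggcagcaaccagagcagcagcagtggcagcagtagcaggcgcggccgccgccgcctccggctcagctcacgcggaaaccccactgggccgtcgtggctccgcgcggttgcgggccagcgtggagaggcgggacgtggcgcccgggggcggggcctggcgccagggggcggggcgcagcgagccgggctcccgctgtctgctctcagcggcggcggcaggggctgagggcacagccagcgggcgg
THRB promoter inside the span: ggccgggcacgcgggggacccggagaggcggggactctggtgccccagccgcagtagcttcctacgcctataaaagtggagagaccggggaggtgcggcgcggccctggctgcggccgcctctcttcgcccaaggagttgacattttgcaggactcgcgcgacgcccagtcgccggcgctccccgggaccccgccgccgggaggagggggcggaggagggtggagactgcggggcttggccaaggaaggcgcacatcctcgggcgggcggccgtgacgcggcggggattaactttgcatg

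The repeat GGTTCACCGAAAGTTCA lies from 53 to 37 bases before the internal RARB start, at chr3:25428210-25428226, and is the textbook retinoic acid response element of this gene. A DR5 element was present in 1 of the members' 95 windows and in 31 of all 34943 RefSeq windows (0.0887%). The other windows shown held none. The half-site AGGTCA itself was in 15 member windows and in 13.8% of all windows, and AGTTCA in 12 member windows and 10.5% of all. The AP-1 motif TGACTCA, which is TGAGTCA on the other strand, was in 4 member windows and 4.96% of all. AATATT, a stretch of the AT-rich kind that HMGA1 binds, was in 11 member windows and 6.98% of all, and a run of 6 or more A or T in 62 member windows and 61.2% of all. The internal RARB window was 53.3% A and T. That was the highest among the windows over regions tested at 2 h, which ranged from 13.3% with a median of 34%, against a median of 41.3% over all windows. The distant RARB window had 23.7% and the THRB window 28%. Each match describes letters in these windows and is not a measured binding site.

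Few nuclear receptor regions changed against mock, and most of the changes that were called separated 18 h from 2 h. At 2 h, 2 of 433 tested regions rose (0.462%), against 0.856% of all tested regions, and 4 fell (0.924%), against 0.421%. At 18 h, none of 277 rose, against 0.00542% of all tested regions, and 1 fell (0.361%), against 0.116%. Between 18 h and 2 h, 4 of 553 were higher at 18 h (0.723%), against 0.498% of all, and 14 were lower (2.53%), against 2.98%. The share of the members that was lower at 18 h was thus near the share of all regions. Unadjusted p-values under 0.05 were held by 53 members at 2 h (12.2%, all regions 10.0%), by 24 at 18 h (8.66%, all regions 7.89%) and by 64 between the times (11.6%, all regions 11.6%). The members' median log2 fold change was -0.07, -0.08 and 0.01 in the 3 comparisons, and that of all tested regions -0.06, -0.07 and 0.01. When the fold changes were centred on the median tested region, 4 members were higher and 3 lower at 2 h, and when they were centred within bins of mean signal, 6 were higher and 1 lower. The same steps moved the share of higher calls among all regions at 2 h from 67.0% to 85.6% and 87.8%.

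**Figure D1:**
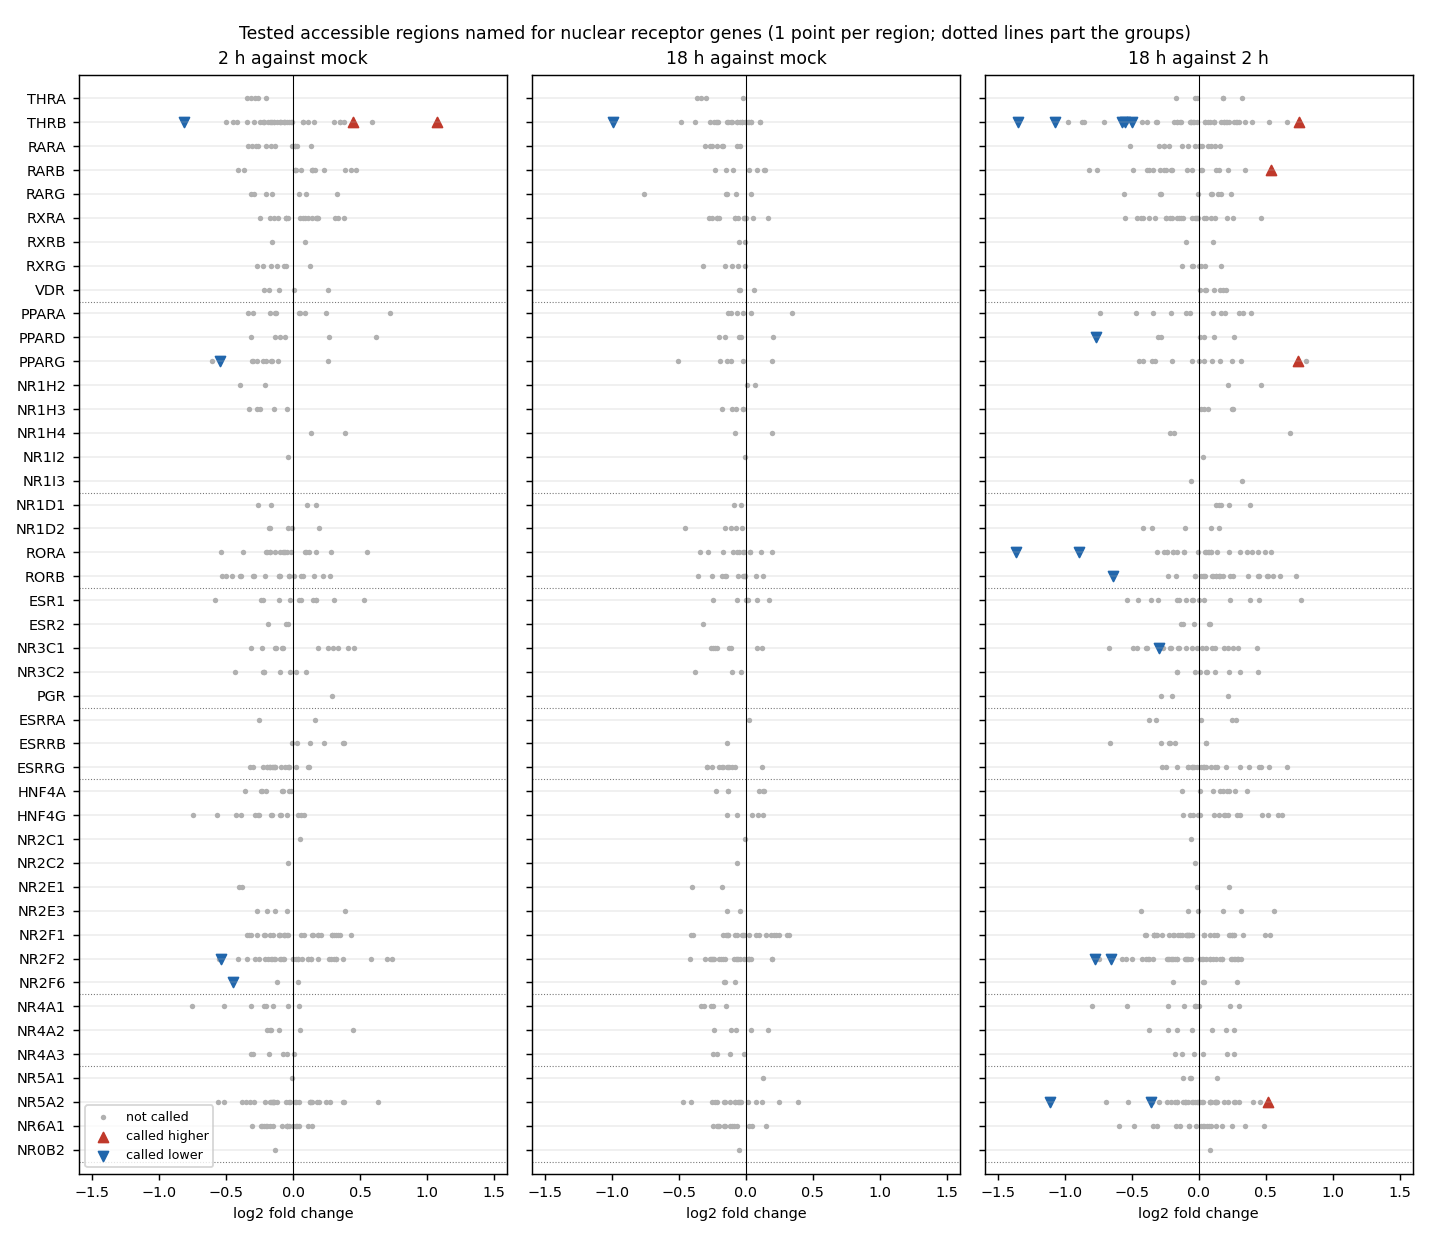
Each point is 1 tested region, placed by its deposited log2 fold change (x axis) and its named gene (y axis), with 1 panel per comparison. Grey points were not called; coloured triangles were called at an adjusted p under 0.05. Most points lie near 0, and THRB carries the strongest rise at 2 h (1.08).

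The calls fell on 21 regions of 10 genes: THRB, NR2F2, NR5A2, RORA, RORB, NR2F6, NR3C1, PPARD, PPARG and RARB. The other 35 genes had none. Over all tested regions 1.28%, 0.121% and 3.48% were called in the 3 comparisons. At such shares a gene with few tested regions can easily have no call. Of the 21 regions, 13 lay inside the RefSeq span of the named gene, 11 lay over 100 kb from the named start and 2 were within 1 kb of it. For all 1073 member regions, tested or not, these counts were 614, 499 and 40, and the difference in layout was not tested. All 14 regions that were lower at 18 h than at 2 h had a deposited 2 h value above mock (0.12 to 1.08) and an 18 h value below it (-0.49 to -0.07). Their log2 differences ran from -1.36 to -0.30, with a median fold of 1.64 lower at 18 h. The 4 regions that were higher at 18 h than at 2 h had 2 h values between -0.82 and -0.41 and 18 h values between -0.07 and 0.19, with a median fold of 1.56. In both directions the 18 h value lay nearer to mock than the 2 h value, except at the regions 55.2 kb from the start of THRB and 418 kb from that of RORB. Most of these single values against mock did not pass the test, and the choice of regions by the difference fixes part of this pattern.

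**Figure D2:**
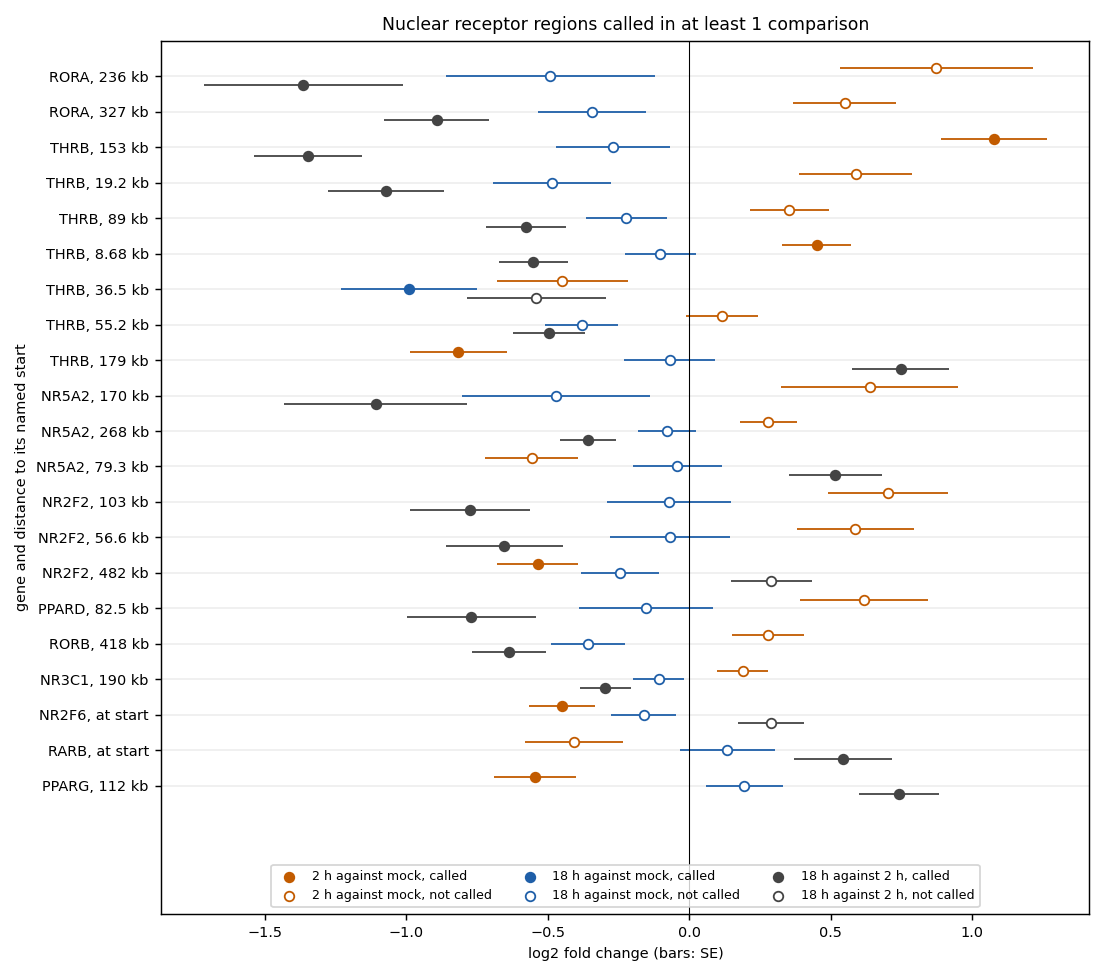
The 21 regions called in at least 1 comparison, with the deposited log2 fold change (x axis; bars are SE) for 2 h (orange) and 18 h (blue) against mock and between the times (grey); filled points were called. The orange and grey points of a region lie on opposite sides of 0, except for the THRB region 36.5 kb from the named start.

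THRB, which encodes the thyroid hormone receptor beta, held 7 of the 21 regions, the most of any member. It had 75 regions, 46 of them inside its RefSeq span of 379 kb (chr3:24117153-24495708, minus strand), and all 7 called regions were inside. Inside the span, 3 of 27 tested regions were called at 2 h, 1 of 21 at 18 h and 6 of 31 between the times. Over all tested regions, 1.28%, 0.121% and 3.48% were called in either direction. Outside the span, 0 of 11, 0 of 4 and 0 of 17 THRB regions were called, too few for these shares to give 1 call, and the difference from the inside was not tested. The deposited tables measure distance from a start 330 kb downstream of the 5′ end that RefSeq gives, so the distances to THRB below are to that internal start.

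The strongest rise at 2 h was in the region chr3:24318599-24319100, 153 kb from the named THRB start. Its level was about 120 in mock, 253 at 2 h and 99.3 at 18 h. The authors' deposited table gave a log2 fold change of 1.08 ± 0.19 (SE, 2 libraries a group; DESeq2 adjusted p = 1.41e-05) at 2 h, a fold of 2.11. At 18 h it was -0.27 ± 0.20 against mock (adjusted p = 0.852) and -1.35 ± 0.19 against 2 h (adjusted p = 2.89e-09). The region was therefore high at 2 h alone.

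A neighbour moved the other way. The THRB region chr3:24344976-24345477, 179 kb from the named start, had levels of about 279 in mock, 159 at 2 h and 266 at 18 h. It fell by 0.82 on the log2 scale at 2 h (SE 0.17; deposited DESeq2 adjusted p = 0.000808) and was higher by 0.75 ± 0.17 at 18 h than at 2 h (adjusted p = 0.00126). Its 18 h value against mock was -0.07 ± 0.16. Both regions are 26.4 kb apart, and the 2 tested regions between them had deposited 2 h values of -0.17 and -0.22, neither of them called.

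The third THRB region called at 2 h, chr3:24156417-24156918, was 8.68 kb from the named start and also overlaps the antisense gene THRB-AS2. Its level was about 356 in mock, 485 at 2 h and 331 at 18 h. It rose by 0.45 ± 0.12 at 2 h (deposited adjusted p = 0.0257) and was lower at 18 h than at 2 h, by a difference of -0.55 ± 0.12 in the authors' deposited table (adjusted p = 0.000719). With no limit on mean signal, the 2 h call was lost (adjusted p = 0.0631).

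Of the other THRB regions, 3 were lower at 18 h than at 2 h with no call at 2 h. The region 19.2 kb from the start had a deposited difference of -1.07 ± 0.20 (adjusted p = 3.49e-05), with 0.59 at 2 h and -0.49 at 18 h. The region 89.05 kb away had -0.58 ± 0.14 (adjusted p = 0.00322). The region 55.2 kb away had -0.50 ± 0.13 (adjusted p = 0.00676), and here the 18 h value (-0.38 ± 0.13) was farther from mock than the 2 h value (0.12 ± 0.13). The only member region called at 18 h against mock was also in THRB, chr3:24128557-24129058, 36.5 kb from the start. Its level was about 138 in mock, 101 at 2 h and 69.3 at 18 h, a deposited log2 fold change of -0.99 ± 0.24 at 18 h (adjusted p = 0.0356) and -0.45 ± 0.23 at 2 h. Centring on the median region ended that call (adjusted p = 0.156), as did centring within bins of mean signal (0.123) and leaving out the limit on mean signal (0.130).

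**Figure D3:**
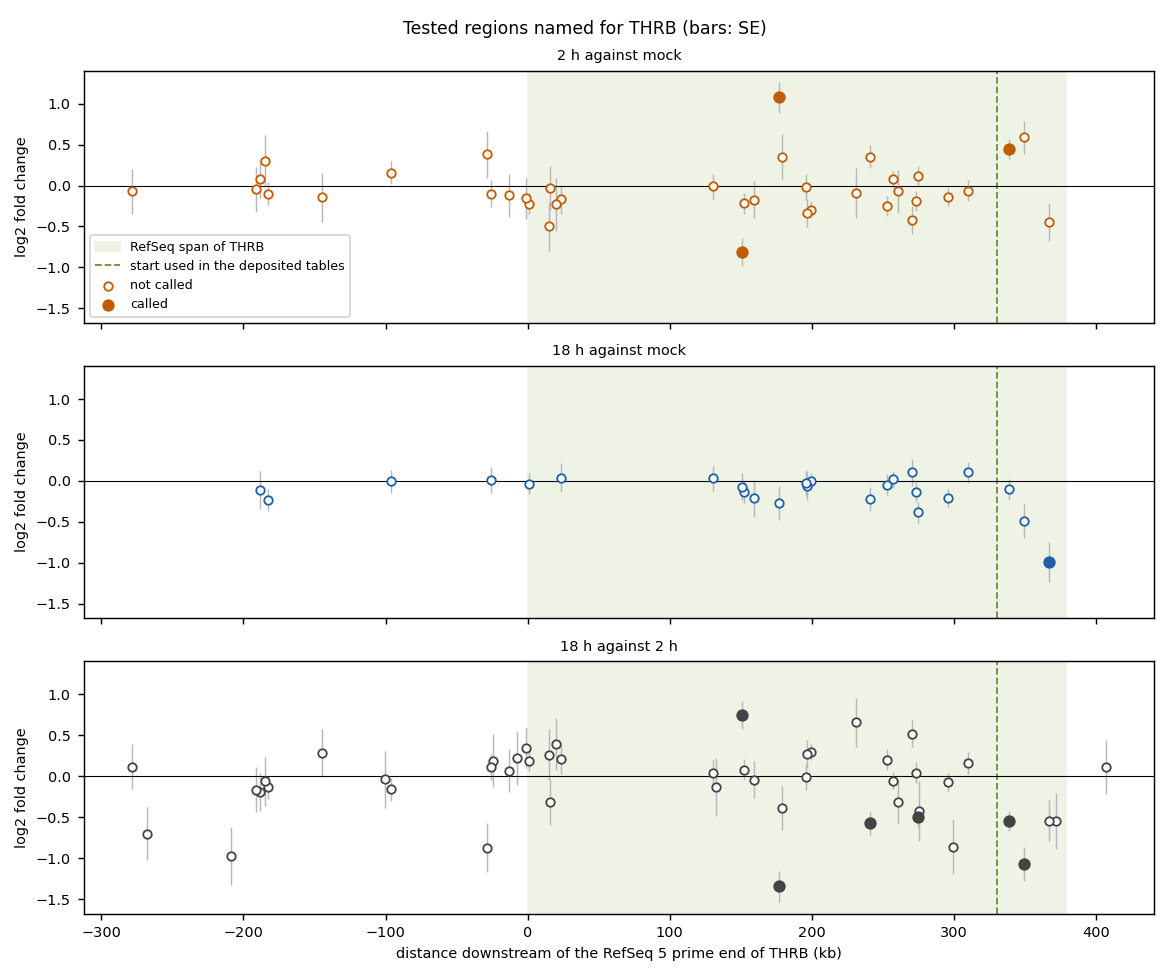
Tested regions named for THRB in the 3 comparisons, by distance downstream of the RefSeq 5′ end (x axis, kb) and deposited log2 fold change (y axis; bars are SE); filled points were called, the shaded band is the RefSeq span and the dashed line the start used in the tables. All filled points lie in the band, with the strongest rise (1.08) and the fall (-0.82) at 2 h close together.

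The region over the THRB promoter window printed above, chr3:24494785-24495286, had a mean signal of 364. Its deposited log2 fold change was -0.22 ± 0.13 at 2 h, -0.03 ± 0.13 at 18 h and 0.19 ± 0.13 between the times, with no call. THRA, the gene of the other thyroid hormone receptor, had 5 tested regions at 2 h, between -0.34 and -0.20, and none was called.

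Among the retinoic acid receptors, RARB was called at its internal promoter, in the region chr3:25427919-25428420 that holds the DR5 element printed above. The signal was about 241 in mock, 182 at 2 h and 265 at 18 h. The authors' deposited table gave -0.41 ± 0.17 at 2 h (DESeq2 adjusted p = 0.330), 0.13 ± 0.17 at 18 h (0.956) and 0.54 ± 0.17 between the times (0.0479). Only the difference between the times passed, as a 1.46-fold higher signal at 18 h than at 2 h. Of 33 tested member start regions, it was the only one called higher in that comparison. Among all tested regions within 1 kb of a gene start, 0.141% were called higher. The call was lost on centring by the median (adjusted p = 0.0544) or within bins of mean signal (0.0514). At the distant RARB promoter the region chr3:24829061-24829562, with a mean signal of 75.3, had 0.15 ± 0.28 at 2 h and -0.05 ± 0.27 between the times.

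RARA, RARG and the RXR genes, which encode the shared partners of many receptors, had no call. RARA had 12 tested regions at 2 h (-0.33 to 0.14) and RXRA 20 (-0.25 to 0.38). Smallest p-values here and below are those among tested regions. Among all genes without a call, the smallest belonged to RARG, in a region 1.498 kb upstream of its start, chr12:53233750-53234251. The signal there was about 131 in mock, 114 at 2 h and 77.0 at 18 h. The deposited 18 h value of -0.76 ± 0.24 had a DESeq2 adjusted p of 0.193. The RXRA region with the smallest p, 53.3 kb downstream, differed by -0.33 ± 0.12 between the times (adjusted p = 0.127). VDR, the vitamin D receptor gene, had 7 tested regions between the times, from 0.01 to 0.20, with no call.

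Among the lipid sensors, PPARG and PPARD were called. PPARG encodes the fat cell receptor PPAR gamma, and its called region chr3:12424136-12424637 lies inside the gene, 112 kb downstream of the named start. Mock cells had a level of about 333, against 228 at 2 h and 381 at 18 h. It fell by 0.55 on the log2 scale at 2 h (SE 0.14; deposited DESeq2 adjusted p = 0.0184) and was higher by 0.74 ± 0.14 at 18 h than at 2 h (adjusted p = 4.01e-05). The 18 h value against mock was 0.19 ± 0.14 (adjusted p = 0.826). Centring within bins of mean signal ended the 2 h call (adjusted p = 0.0663). The PPARD region, chr6:35425162-35425663, inside the gene and 82.5 kb from its start, had levels of about 96.7, 148 and 86.9. It was lower at 18 h than at 2 h, with a deposited difference of -0.77 ± 0.23 (adjusted p = 0.0271), while its 2 h value of 0.62 ± 0.23 was not called (adjusted p = 0.197). PPARA, the oxysterol receptor genes NR1H2 and NR1H3, the bile acid receptor gene NR1H4 and the xenobiotic receptor genes NR1I2 and NR1I3 had no call. NR1I3 had no region tested against mock.

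RORA and RORB, which encode activators of the circadian clock genes, were called lower at 18 h than at 2 h in 3 regions. These were 2 of 26 tested RORA regions and 1 of 27 tested RORB regions, against 2.98% of all tested regions. The largest deposited difference was in RORA, chr15:60992983-60993484, inside the gene and 236 kb from its start, at -1.36 ± 0.35 (adjusted p = 0.00663). This region was weak, with levels of about 39.5 in mock, 72.3 at 2 h and 28.1 at 18 h, under the limits for an adjusted p against mock. The second RORA region, chr15:61555941-61556442, lies 327 kb upstream, and its levels of about 156, 229 and 123 gave -0.89 ± 0.19 (adjusted p = 0.000221). The RORB region chr9:74078558-74079059, 418 kb upstream of the gene, was stronger, with about 422 in mock, 512 at 2 h and 329 at 18 h. Its deposited difference was -0.64 ± 0.13 (adjusted p = 0.000148), and its value against mock was larger in size at 18 h (-0.36 ± 0.13, adjusted p = 0.333) than at 2 h (0.28 ± 0.13, adjusted p = 0.401). NR1D1 and NR1D2, which encode the repressors REV-ERB alpha and beta that compete with the ROR proteins, had no call in 5 tested regions each between the times.

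Of the steroid receptor genes, NR3C1, which encodes the glucocorticoid receptor, was called once. The region chr5:143243915-143244416, 190 kb downstream of its start and outside its span, was the most open of the called regions, at about 804 in mock, 916 at 2 h and 745 at 18 h. Its deposited difference between the times was -0.30 ± 0.09 (adjusted p = 0.0320), the smallest called among the members. With no limit on mean signal, the calls of NR3C1, PPARD, RARB, the NR2F2 region 56.6 kb away and the NR5A2 region 79.3 kb away were lost. One was gained, in a weak region of NR3C2, the mineralocorticoid receptor gene, chr4:148477051-148477552, 32.4 kb from its start. With a mean signal of 22.9 it had a deposited difference of -2.31 ± 0.54 between the times (adjusted p = 0.00367 with no limit), and is named here after its value was seen. In ESR1, the estrogen receptor alpha gene, the region with the smallest p lay inside the gene, 250 kb from the named start. Its level was about 163 in mock, 236 at 2 h and 173 at 18 h, and the deposited 2 h value of 0.53 ± 0.18 did not pass (adjusted p = 0.123). Centring within bins of mean signal brought it just under the threshold (Wald adjusted p = 0.0492). The genes of estrogen receptor beta (ESR2), the mineralocorticoid receptor (NR3C2, with the limit kept), the progesterone receptor (PGR) and the estrogen-related receptors ESRRA, ESRRB and ESRRG had no call.

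NR2F2, which encodes COUP-TFII, had 79 regions and calls in 3. At 2 h, 1 of 36 tested regions was called lower, against 0.421% of all tested regions. Between the times, 2 of 44 were called lower (4.55%), against 2.98% of all. The region chr15:95843497-95843998, 482 kb upstream, fell at 2 h from about 364 to 251 and stood at 307 at 18 h. Its deposited 2 h value was -0.54 ± 0.14 (adjusted p = 0.0195), and centring within bins ended the call (0.0709). The other NR2F2 regions were lower at 18 h than at 2 h. The region chr15:96428609-96429110, 103 kb downstream, had levels of about 107, 175 and 102 and a deposited difference of -0.78 ± 0.21 (adjusted p = 0.0119). The region chr15:96268805-96269306, 56.6 kb upstream and inside the span of NR2F2-AS1, had about 114, 171 and 108 and a difference of -0.65 ± 0.21 (adjusted p = 0.0460). NR2F1, the gene of COUP-TFI, had 66 regions and no call. Its smallest p was 504 kb upstream, where the deposited difference between the times was -0.34 ± 0.12 (adjusted p = 0.126).

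NR2F6, a relative of the COUP-TF genes, was called at its own start, chr19:17245846-17246347. The level was about 543 in mock, 397 at 2 h and 485 at 18 h. It fell by 0.45 on the log2 scale at 2 h (SE 0.12; deposited DESeq2 adjusted p = 0.0168), with -0.16 ± 0.11 at 18 h and 0.29 ± 0.12 between the times (adjusted p = 0.211). Of 32 tested member start regions, this was the only one called lower at 2 h. Among all tested regions within 1 kb of a gene start, 0.0954% were called lower. The call was lost on centring by the median (adjusted p = 0.0541) or within bins of mean signal (0.111). The hepatocyte factor gene HNF4G, with 16 tested regions between the times and no call, had its smallest p 568 kb from the named start, where the deposited difference was 0.62 ± 0.21 (adjusted p = 0.0713).

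NR5A2, which encodes LRH-1, a regulator of bile acid and steroid synthesis genes, had 63 regions, 42 of them tested between the times. Of the 42, 3 were called, 1 higher and 2 lower, against 0.498% and 2.98% of all tested regions. The region chr1:199759259-199759760, 268 kb upstream, had levels of about 587, 712 and 555 and a deposited difference of -0.36 ± 0.10 (adjusted p = 0.0154). The region chr1:199856975-199857476, 170 kb upstream, was weak, with about 52.0, 80.8 and 37.5, and had -1.11 ± 0.32 (adjusted p = 0.0235). Inside NR5A2, the region chr1:200106895-200107396, 79.3 kb from the start, moved the other way, with about 248 in mock, 168 at 2 h and 241 at 18 h. Its difference was 0.52 ± 0.16 (adjusted p = 0.0494), and centring by the median (0.0565) or within bins (0.0534) ended the call. Its 2 h value of -0.56 ± 0.16 narrowly missed the threshold (adjusted p = 0.0529). The orphan immediate early genes NR4A1, NR4A2 and NR4A3 had no call in 20 regions tested at 2 h. Over all tested regions 1.28% were called at 2 h, and 20 regions are too few for that share to give 1 call. At its named start, NR4A1 had about 778 in mock, 678 at 2 h and 628 at 18 h, a deposited 18 h value of -0.31 ± 0.10 (DESeq2 adjusted p = 0.252). That start lies 28.6 kb downstream of the 5′ end that RefSeq gives.

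**Figure D4:**
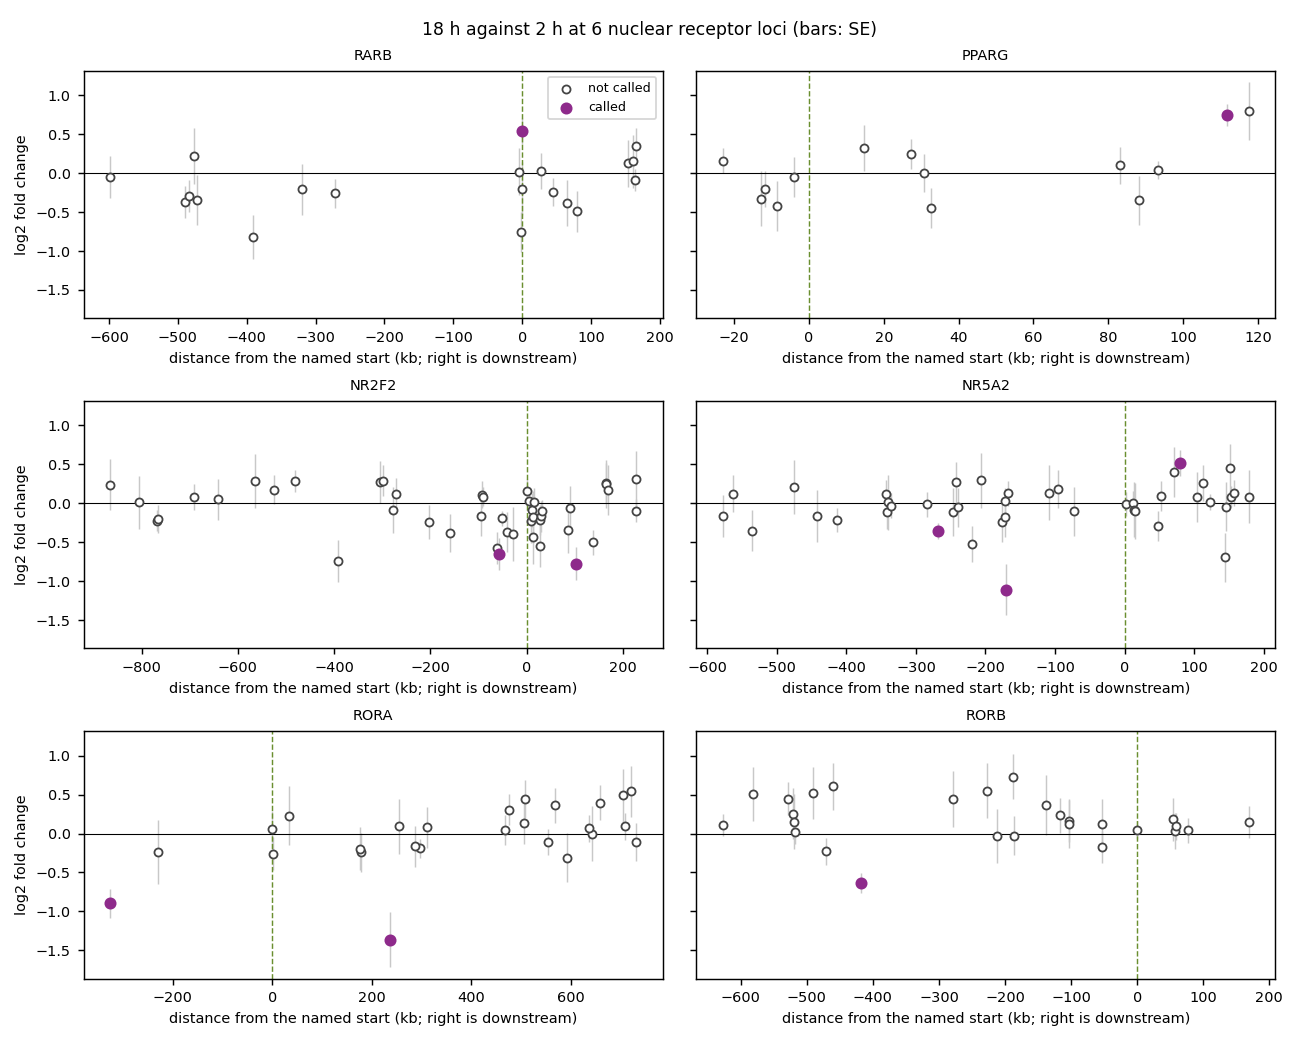
Deposited log2 difference between 18 h and 2 h (y axis; bars are SE) for tested regions named for RARB, PPARG, NR2F2, NR5A2, RORA and RORB, by distance from the named start (x axis, kb; right is downstream); filled points were called. At RARB the called point (0.54) sits on the start, and at RORB it is the lowest point (-0.64), 418 kb upstream.

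At the named gene starts, changes were small. The named start lay within 1 kb of the RefSeq 5′ end for 27 members and farther from it for 12. Among the latter were ESRRG (414 kb), ESR1 (148 kb), NR4A1 (28.6 kb) and RARA (9.1 kb), so their start regions are not at that 5′ end. NR2F6, VDR, HNF4G, NR4A2 and NR0B2 had no promoter window and NR2C1 only a region at its start, so this distance was not computed. The start region of NR4A2 lay outside its RefSeq span, over the gene FLJ46875. Of the 40 regions within 1 kb of a named start, which belong to 34 genes, 32 were tested at 2 h, 30 at 18 h and 33 between the times. At 2 h, 26 lay below 0 and 6 above, from -0.45 (NR2F6) to 0.19 (RXRA), with a median of -0.17, against -0.11 for all tested start regions. Of the 32, 8 had an unadjusted DESeq2 p under 0.05 (25%), against 10.0% of all tested regions at any distance. The share among all tested start regions is not given here, so whether the 25% is particular to the members was not tested. The SE ranged from 0.0944 to 0.268, with a median of 0.128 against 0.207 for all tested regions. Beside NR2F6 and RARB, the lowest deposited 2 h values were those of PPARD (-0.31 ± 0.13), RARG (-0.29 ± 0.13), THRA (-0.28 ± 0.17), NR1D1 (-0.26 ± 0.10) and ESRRA (-0.25 ± 0.11), none of them called. At 18 h, 24 lay below 0, with a median of -0.07 against -0.05 for all. Between the times 23 lay above 0, with a median of 0.04 against 0.05. The strongest start regions, such as RARA (mean signal 711), ESRRA (712) and NR4A1 (695), had values of at most 0.31 in size against mock at either time.

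**Figure D5:**
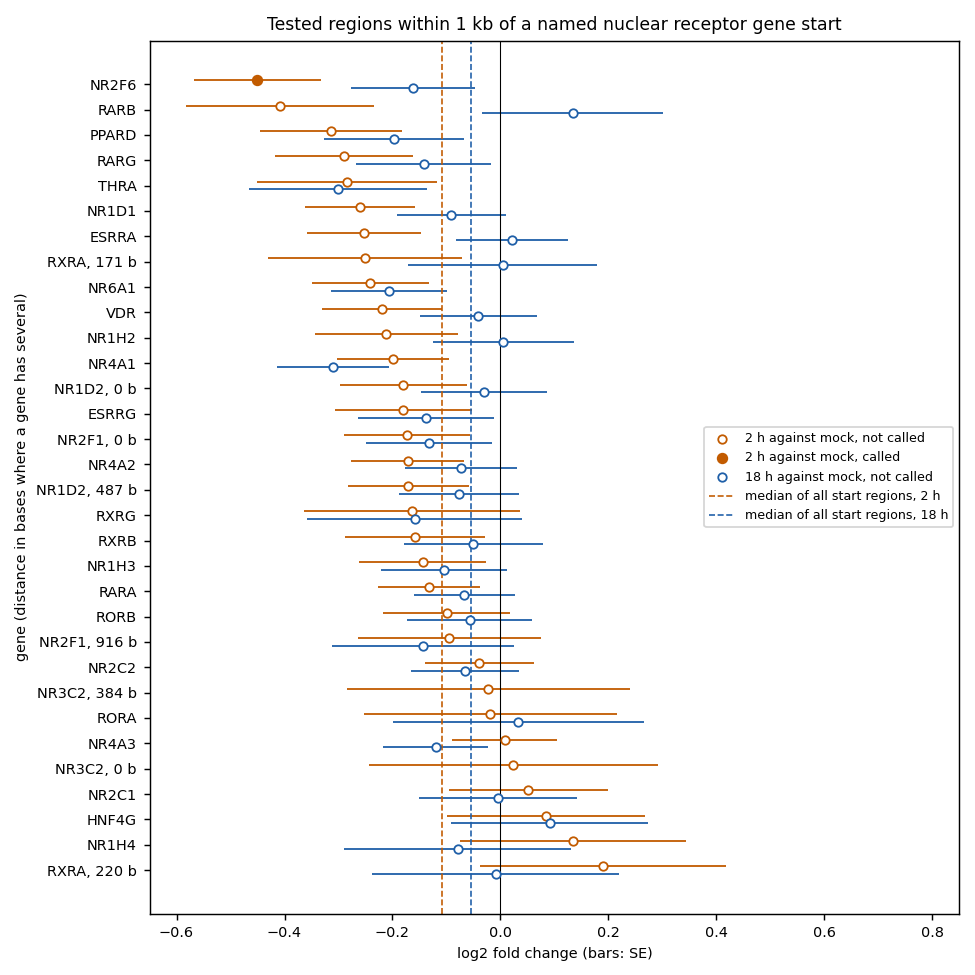
Tested regions within 1 kb of a named start, with the deposited log2 fold change (x axis; bars are SE) for 2 h (orange) and 18 h (blue) against mock; the filled point was called, and dashed lines are the medians of all start regions. Most points lie left of 0, as do both dashed lines (-0.11 and -0.05), and RARB has the highest 18 h value (0.13).

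Genes that work with the receptors were described from 4 lists, whose median deposited log2 fold change at 2 h was -0.07 (coactivators), -0.09 (corepressors), -0.04 (ligand genes) and -0.08 (target genes), against -0.06 for all tested regions. Of the coactivator regions, 3 of 142 rose at 2 h and none fell, and 5 of 175 were lower at 18 h than at 2 h. Of all tested regions, 0.856% rose and 0.421% fell at 2 h, and 0.498% were higher and 2.98% lower between the times, so the coactivators' lower calls were near the general share. A region 58.5 kb from the start of CREBBP, which encodes a histone acetyltransferase, rose by 0.58 ± 0.12 in the authors' deposited table (adjusted p = 0.000331) and was then lower by a difference of -0.77 ± 0.12. A region of PPARGC1A, the coactivator PGC-1 alpha, had 1.08 ± 0.24 (adjusted p = 0.00169) and then -1.20 ± 0.24. Regions named for MED13L, a Mediator subunit gene (-0.86 ± 0.16), and NCOA7 (-0.64 ± 0.19) were lower in the deposited comparison of the times alone. Of the corepressor regions, 3 of 107 fell at 2 h and none rose, and between the times 4 of 138 were higher and 5 lower, the latter near the 2.98% of all regions. The largest deposited fall was named for TBL1XR1, a corepressor complex subunit gene, at -0.85 ± 0.17 (adjusted p = 0.000565), followed by a difference of 0.72 ± 0.17. Another TBL1XR1 region fell as well, at -0.47 ± 0.12. Between the times TBL1XR1 regions were called in both directions, with differences from 0.64 to 0.72 and of -0.88 and -0.87. Much of the list's pattern thus comes from this gene. A region named for NRIP1, the gene of another corepressor, was higher at 18 h than at 2 h, with a deposited difference of 1.0 ± 0.20 (adjusted p = 0.000123).

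Of the regions named for genes of ligand synthesis, transport and breakdown, 5 of 149 rose at 2 h, against 0.856% of all tested regions, and 9 of 196 were lower at 18 h than at 2 h, against 2.98%. The largest deposited rise was 32.6 kb from the start of CYP24A1, which breaks down vitamin D, at 1.28 ± 0.25 (adjusted p = 0.000154), followed by -1.31 ± 0.25 between the times. Next were 3 regions of ALDH1A3, a retinoic acid-forming enzyme (1.01 to 1.18), and 1 of DIO2, which activates thyroid hormone (0.82 ± 0.19, adjusted p = 0.00290). The ALDH1A3 regions lay close together, 17.8 to 22.1 kb from the start. They were weak, with mean signals from 59.1 to 72.8 against a limit of 56.2 (SE 0.29 to 0.33, DESeq2 adjusted p from 0.0287 to 0.0375). The largest deposited differences between the times, beside CYP24A1, were those of RDH10, which oxidises retinol (-1.33 ± 0.26), and DIO3, which inactivates thyroid hormone (-1.27 ± 0.28). Of the receptor target gene regions, 4 of 160 rose at 2 h, against 0.856% of all, and 8 of 196 were lower between the times, against 2.98%. These rises were in TGM2, a retinoic acid target (3 regions, 0.52 to 0.61), and in ABCA1, a cholesterol exporter gene (0.72 ± 0.18, adjusted p = 0.0109). The 3 TGM2 regions that rose were lower at 18 h than at 2 h, as was another TGM2 region. Their deposited differences ran from -0.73 to -0.53, and the ABCA1 region had -0.56 ± 0.18. SGK1, a glucocorticoid target, had 3 regions lower between the times, with deposited differences from -0.81 to -0.59. Most of the 8 lower calls were thus in TGM2 and SGK1. At 18 h against mock, none of the 93, 73, 85 and 117 tested regions of the 4 lists was called by DESeq2, and 8, 7, 5 and 13 had an unadjusted p under 0.05. The shares over all tested regions were 0.121% called and 7.89% with an unadjusted p under 0.05. The lists were too small for such a share to give 1 call.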

How the data were processed

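The values come from the authors' 3 deposited comparison tables of 6 ATAC-seq libraries; 0 columns hold a single library. Per the submitters' processing notes, the build was hg38, bcl2fastq 2.17 was used, and DESeq2 (no version named) made the comparisons. The aligner, peak caller and read counter, and whether read ends were shifted for Tn5, are not given in the sources used here. In the deposited tables the mean signal is a read count scaled by size factors of the authors. The log2 fold change, SE, the Wald statistic (a score) and the p-value are the authors' as deposited, and no model was fitted anew.

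Rows repeating a region were dropped. A deposited adjusted p of exactly 1 below a limit on mean signal counted as not tested; adjusting the rest by Benjamini-Hochberg returned the deposited values to within 4.99e-14. Calls need an adjusted p under 0.05. Group levels were computed from the mean signal and both deposited log2 fold changes.

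Members and lists were chosen with earlier results of these data known. Named are members with a called region, by the largest called change, and those with a tested start region. The 6 of the rest with the smallest p in a tested region and up to 4 called genes per pathway list are named too. A called pathway gene that met this rule is not reported here. Other called regions of the named members were added after their values were seen. RefSeq GRCh38.p14 gave spans and promoter windows for names and sequence; exons and introns were not analysed here. Whether coordinates count from 0 or 1 was not stated. Python 3.11.15, pandas 2.3.3, numpy 2.4.6, scipy 1.17.1 and matplotlib 3.10.9 were used.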

Additional observations from a re-analysis of the deposited data

Results flagged for a closer look

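At 18 nuclear receptor regions the signal differed between cells exposed to recombinant HMGA1 for 18 h and for 2 h. This is by the direct test of 18 h against 2 h (the authors' deposited DESeq2 adjusted p under 0.05). With no mock for each time, length of exposure and time in culture cannot be told apart. In THRB the log2 differences were -1.35, -1.07, -0.58, -0.55, -0.50 and 0.75. In RORA they were -1.36 and -0.89, and in RORB -0.64. In NR5A2 they were -1.11, -0.36 and 0.52. In NR2F2 they were -0.78 and -0.65. PPARD had -0.77, NR3C1 -0.30, PPARG 0.74 and RARB 0.54. Values with a minus sign were lower at 18 h. All tested regions were called lower in 2.98% and higher in 0.498% of cases.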

How the results depend on the processing

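Only values that the tables hold could be varied. Other scalings, other count models and leaving out libraries were not run. No paired analysis was possible because the tables hold no value per library. Counts of called members are given in the order 2 h higher, 2 h lower, 18 h higher, 18 h lower, then 18 h against 2 h higher and lower: 2, 4, 0, 1, 4 and 14 in the tables. Centred on the median tested region, they were 4, 3, 0, 0, 2 and 15, and centred within 20 bins of mean signal 6, 1, 0, 0, 2 and 15. An adjusted p under 0.01 gave 1, 1, 0, 0, 2 and 8, no limit on mean signal 1, 4, 0, 0, 2 and 12, and regions within 100 kb only 1, 1, 0, 1, 2 and 6. Without the regions named for THRB, an alternative chosen after seeing the data, the counts were 0, 3, 0, 0, 3 and 9. Of 25 calls, 21 were kept with median centring, 19 with bins, 12 at the stricter threshold and 18 with no limit on mean signal. Centring also gained higher calls at 2 h. The NR2F2 region 103 kb downstream was called with the median and with bins (Wald adjusted p = 0.0266 and 0.0321). So was the NR5A2 region 268 kb upstream (0.0469 and 0.0149). Bins alone gained the RORA region 327 kb upstream (0.0485) and the ESR1 region 250 kb from the named start (0.0492).

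With centring, signs turned only at uncalled values near 0 (median, then bins). At 2 h these were NR2C2 (0.021, 0.062), NR3C2 (0.038, 0.0042) and RORA (0.041, 0.013). At 18 h they were NR5A2 (0.027, 0.033), NR1D2 (0.038, 0.050), NR2C1 (0.065, 0.078), NR2C2 (0.0036, 0.0046), RARA (0.0018, 0.0028), RORB (0.012, 0.024), RXRA (0.060, 0.031), RXRB (0.019, 0.037) and VDR (0.028, 0.042), NR2F2 with the median alone (0.00025), and THRB (0.012) and NR4A2 (0.00044) with bins alone. Between the times they were NR3C2 (-0.0021, -0.0045), RXRG (-0.0059, -0.0026) and, with the median alone, HNF4G (-0.0043). The cause was not tested. Of the 1073 regions, 520 were under the limit on mean signal in every comparison and were not called for that reason; without the limit, 1 of them, in NR3C2, was lower between the times (-2.31, adjusted p = 0.00367).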
